A study of Danio rerio with 5 samples.

Results

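Within the zebrafish blastula at dome stage, the positions of 2 chromatin marks were set against each other: trimethylation of lysine 27 of histone H3 (H3K27me3) and DNA methylation. The members were every peak of the H3K27me3 dome list (31983) and of the MethylCap dome list (220564) that lay on chromosomes 1 to 25, together 252547 of the 781830 peaks of the 5 libraries of the series. H3K27me3 was mapped by chromatin immunoprecipitation and sequencing with a Millipore antibody, and DNA methylation by MethylCap-seq with a Diagenode kit, which captures methylated DNA fragments with a methyl-CpG binding protein. Both libraries came from untreated whole embryos at dome stage, of mixed AB and Tubingen strain background, without any sorting of cells. The lists of 48 hours post fertilisation (48 hpf), from whole embryos of the same strain background, serve as a comparison. Each mark had 1 library per stage. No value below therefore has a replicate spread, no p-value was computed, and intervals cover counting error within these libraries only, treating peaks as independent. Whole embryos were profiled, so 2 marks called at the same place may lie in the same cells, in different cells or on different alleles, and these cannot be told apart. The lists hold no read counts. Depth was unknown, so a stretch with no call can still carry a mark that was too weak to detect. Below, with or without methylation means with or without a MethylCap peak. MethylCap peaks covered 7.18% of the chromosome span, and DNA outside them is not shown to be unmethylated.

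H3K27me3 is deposited by Polycomb repressive complex 2 and is known for marking silent developmental regulator genes in embryos. DNA methylation in vertebrates sits mostly on the cytosine of CpG and covers most of the genome, repeats included, whereas CpG-dense promoters and the surroundings of many developmental genes stay free of it. In mammalian cells, Polycomb repressive complex 2 is known to favour CpG-dense DNA that is not methylated. The comparison asked how the marks were arranged relative to each other before gastrulation, as the title of the series speaks of cross-talk between them.

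The H3K27me3 peaks were divided by width into 3 classes. Peaks below 500 bp made up 60.8% of the list (19455 peaks) and 28.8% of its bases, with a median width of 239 bp. Peaks of 500 bp to under 1000 bp numbered 8241, or 25.8% of the list, with a median width of 641 bp. Peaks of 1000 bp or more numbered 4287, or 13.4% of the list, yet held 39.99% of its bases, with a median width of 1445 bp. The fold enrichment, the authors' value averaged over a peak, was alike in the classes (median 3.13, 3.14 and 3.38). The −log10 q of the peak caller was not, with medians of 1.47, 1.58 and 3.99, so the widest class was also the most significant. The lowest −log10 q of the list was 1.01, so many short peaks were called near its lower limit. Whether these calls stand for H3K27me3 or for background was not tested. No gene is assigned to a region, and no sequence is printed, because no genome or annotation of the build was used here. Coordinates are on danRer7, counted from 1.

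Short H3K27me3 peaks met DNA methylation more often than their size alone would give. Long ones did so less often when counted by peak, but not when counted by bases. In the full list 29.6% of H3K27me3 peaks overlapped a MethylCap peak by at least 1 bp. Of the peaks below 500 bp, 5648 of 19455 did (29.0%, Wilson 95% interval 28.4 to 29.7%). Of the peaks of 500 bp to under 1000 bp, 2712 of 8241 did (32.9%, 31.9 to 33.9%), and of the peaks of 1000 bp or more, 1097 of 4287 (25.6%, 24.3 to 26.9%). A longer stretch has more room for a MethylCap peak. As a reference, every window of the same width at every position of the chromosomes was counted. Of such windows, 11.3%, 17.2% and 29.2% met a MethylCap peak for the widths of the 3 classes. The share of peaks was thus 2.57 times that of windows in the shortest class (2.51 to 2.62), 1.91 times in the middle class (1.85 to 1.97) and 0.876 times in the longest (0.832 to 0.921). Unassembled stretches count as windows without a peak, so the window shares are low estimates and the ratios high ones. The windows matched the peaks in width only. CpG content and mappability were not matched, and their part in the ratios was not tested. Against the higher-scoring 50% of the MethylCap list, the ratio of the longest class was 1.002, which ends its deficit, and those of the shorter classes were 3.02 and 2.30.

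**Figure D1:**
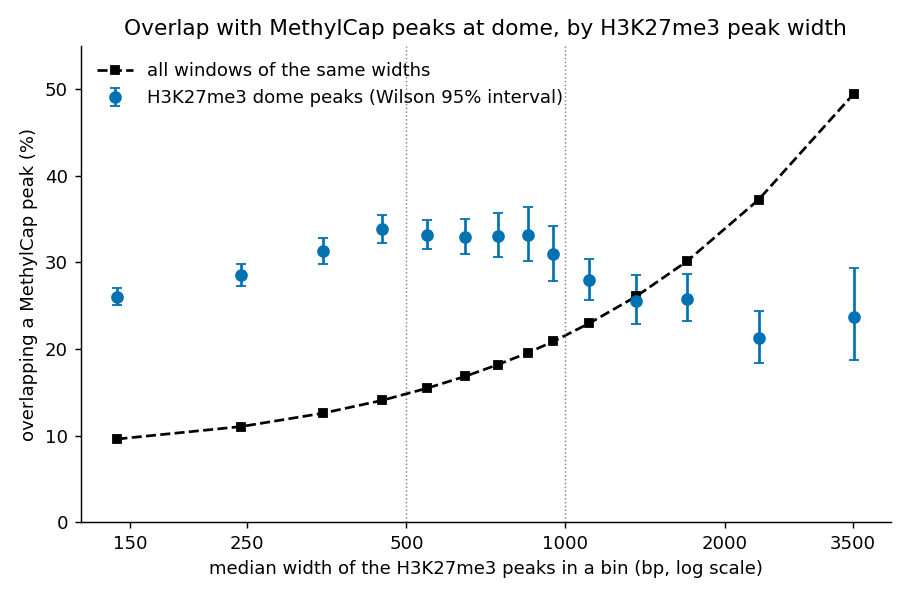
The share of H3K27me3 dome peaks overlapping a MethylCap dome peak (circles, with Wilson 95% intervals) is plotted against the median width of the peaks in 14 width bins on a log scale, beside the share of all windows of the same widths (squares). The peaks lie above the windows up to the bin of 1000 to 1249 bp and below them from 1500 bp on.

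The change from excess to deficit was gradual in width. Peaks below 200 bp had a ratio to windows of 2.71 (26.03% of 7491 peaks against 9.61%). The ratio was 2.15 at 500 to 599 bp, 1.48 from 900 bp to under 1000 bp and 1.22 at 1000 to 1249 bp. In the next bin, with a median width of 1362 bp, the share of peaks (25.6%, 22.9 to 28.5%) and that of windows (26.1%) were not distinguishable. In peaks of 2000 to 2999 bp, 21.2% (18.4 to 24.4%) of 725 held a MethylCap peak against 37.2% of windows, a ratio of 0.570. In the 245 peaks of 3000 bp or more the ratio was 0.479 (23.7%, 18.8 to 29.4%, against 49.5%). The class limits marked no step. On both sides of 500 bp the ratios were 2.34 (450 to 499 bp, 1663 peaks) and 2.198 (500 to 549 bp, 1641 peaks). On both sides of 1000 bp they were 1.58 (950 bp to under 1000 bp, 403 peaks) and 1.41 (1000 to 1049 bp, 338 peaks).

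Counted by bases, the order of the classes was the same, but the longest class as a whole lay above the chromosome span (ratio 1.27). MethylCap peaks covered 23.3% of the bases of the shortest peaks, 18.2% of the middle class and 9.10% of the longest, against 7.18% of the chromosome span. From 2000 to 2999 bp the covered share was 5.81%, and from 3000 bp on it was 5.57%. Among long peaks with a MethylCap peak, 333 of 1097 (30.4%) held more than 1, up to 5, compared with 90 of 5648 (1.59%) in the shortest class, where peak length leaves room for few.

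The arrangement within an overlapping pair also depended on length. Of the 5738 pairs with a peak below 500 bp, 2789 (48.6%) had the H3K27me3 peak lying wholly inside the MethylCap peak, and another 2803 (48.8%) overlapped across 1 edge. In the overlapping peaks of this class a median of 98.9% of the H3K27me3 bases was covered. Of the 1473 pairs with a peak of 1000 bp or more, the opposite nesting prevailed. There, 710 (48.2%) had the MethylCap peak wholly inside the H3K27me3 peak, 721 (48.9%) overlapped across 1 edge, and a median of 32.3% of H3K27me3 bases was covered. MethylCap peaks had a median width of 370 bp, so part of this follows from the lengths themselves.

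Single regions show these arrangements. Among the most significant peaks below 500 bp with methylation, the peak on chromosome 2 from 56692434 to 56692706 (273 bp) had an H3K27me3 fold of 15.9. It lay inside a MethylCap peak of 853 bp from 56691992 to 56692844, whose fold of 12.3 lay at percentile 99.99 of its list. The MethylCap summit lay 137 bp from the start of the H3K27me3 peak, that is, at its middle. On chromosome 22 a peak of 264 bp from 28947386 to 28947649 (fold 14.97) had its MethylCap summit 133 bp from its start, in a MethylCap peak of 2282 bp (fold 7.38). The most significant of the short peaks without methylation, on chromosome 18 from 12608537 to 12608903, had the highest H3K27me3 fold of the list (16.0). Its nearest summits were 2504 bp away on one side and 27575 bp on the other. In the middle class, the peak on chromosome 2 from 13838887 to 13839552 (fold 8.91) had 51.7% of its bases in a MethylCap peak of 344 bp, while the one on chromosome 24 from 39764366 to 39764905 (fold 14.2) had none, with summits 2344 and 3921 bp beyond its edges.

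Long peaks differed as much among themselves. On chromosome 20 from 6555480 to 6557144, an H3K27me3 peak of 1665 bp (fold 5.40) was covered to 99.3% by a MethylCap peak of 1711 bp (fold 7.85). The peak on chromosome 15 from 45149299 to 45150375 (1077 bp, fold 7.69) instead held a small MethylCap peak of 244 bp with a fold of 3.62, over 22.7% of its bases. The widest peak without methylation spanned 6804 bp on chromosome 15 from 34925915 to 34932718 and had its nearest summits 4724 bp before and 14253 bp after it, a stretch of 25780 bp between 2 summits. On chromosome 8 from 45712441 to 45718446 a peak of 6006 bp lay in such a stretch of 17630 bp. The widest peaks with methylation included one of 5157 bp on chromosome 13 from 19210388 to 19215544, with 4.73% of its bases methylated, in a single MethylCap peak of 244 bp whose summit lay 641 bp from its start. Every H3K27me3 peak in these 2 paragraphs also overlapped an H3K27me3 peak of 48 hpf. Of all dome peaks 15.6% did, and the peaks named here were picked by significance or width.

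The distance from the edges to the nearest MethylCap summit, the position of highest enrichment in a MethylCap peak, was then measured for both edges of each peak. Edges of short peaks were nearer to a summit than the average base of the chromosomes, and edges of long peaks were farther. The median distance was 1475 bp (order-statistic 95% interval 1446 to 1505) in the shortest class, 1712 bp (1659 to 1774) in the middle class and 3275 bp (3152 to 3381) in the longest. The median over all bases was 2100 bp. The 2 sides were symmetrical, with medians of 1480 and 1470 bp at the left and right edges of short peaks and 3287 and 3263 bp at those of long peaks. The reference does not depend on width, since the edge of a randomly placed window is a random base.

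**Figure D2:**
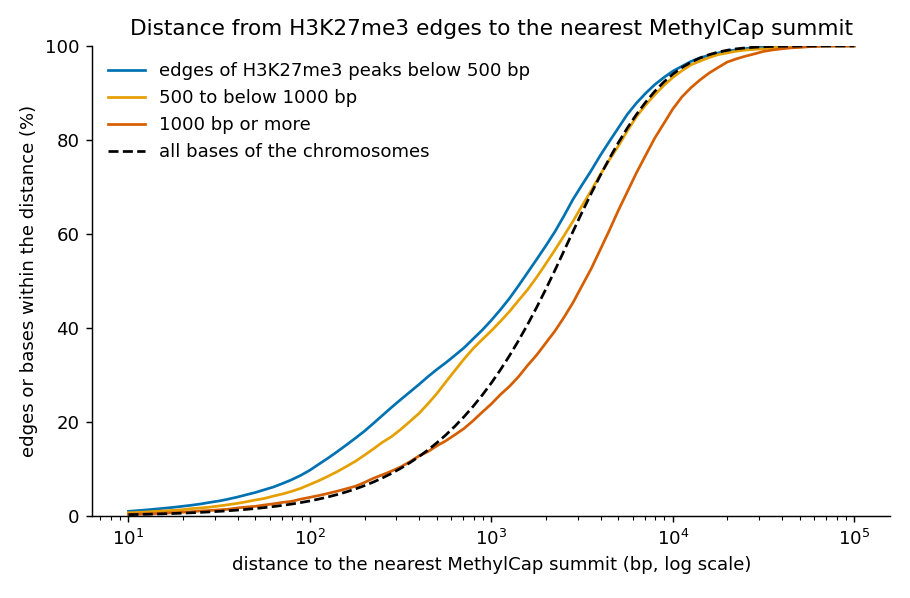
Cumulative share (%) of H3K27me3 edges, by width class, and of all chromosome bases (dashed) within a given distance (bp, log scale) of the nearest MethylCap summit. At 250 bp the shares are 21.4%, 15.7%, 8.79% and 8.11%, and at 5000 bp the edges of long peaks (64.9%) lie below all bases (79.4%).

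The distributions crossed the reference in different ways. Within 250 bp of a summit lay 21.4% of the edges of short peaks, 15.7% of the middle class and 8.79% of long peaks, against 8.11% of all bases. Within 2500 bp the shares were 63.7%, 59.5% and 42.0%, against 56.2%. The middle class was therefore enriched near summits, but its upper quartile (4341 bp) was close to that of all bases (4320 bp). Long peaks were close to the reference at 250 bp and below it at 1000 bp (23.9% against 28.3%). When both lists were reduced to their higher-scoring 50%, the edges of the middle class were no longer nearer than all bases (4052.5 against 3962 bp).

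The nearness of short peaks went with peaks that overlapped methylation. Among peaks with an overlap the median edge distance was 153, 286 and 461 bp in the 3 classes. Among peaks without an overlap it was 2568, 3217 and 4745 bp. Much of this contrast is fixed by the split itself, because an overlap places a summit near the edge. For peaks without a MethylCap peak the fair reference is the set of windows of the class's median width that also met none. Looking outward from each edge, the next summit was a median of 4593 bp (4520 to 4663) from short peaks, against 4436 bp for such windows, a ratio of 1.04. In the middle class it was 5125 bp against 4444 bp (ratio 1.15). In the longest class it was 6604 bp (6432 to 6811) against 4460 bp (ratio 1.48). The stretch between the summits on both sides had a median of 10739 bp around such short peaks (windows 10612 bp) and 17065 bp around long ones (windows 12065 bp). In 39.7% of long peaks without a MethylCap peak both outward summits were over 5000 bp away, compared with 23.7% of short ones. Thus short peaks without a MethylCap peak lay in gaps between summits of nearly ordinary size, and long ones in larger gaps.

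The density of summits around the edges gave the shape of these differences. Over the chromosome span there were 0.163 summits per kb. In short peaks the density within 100 bp inside the edge was 0.615 per kb, and in the first 250 bp outside 0.255 per kb. From 250 bp outward it stayed between 0.154 and 0.173 per kb up to 20 kb, near the span mean. In long peaks the density was 0.251 per kb within 100 bp inside the edge. Farther in, it fell to 0.177 per kb at 250 to 500 bp and was 0.124 per kb at 500 to 1000 bp inside. Outside them it was 0.111 per kb in the first 250 bp and lowest at 250 to 500 bp (0.0873 per kb, 0.537 times the span mean). It then rose slowly, to 0.121 per kb at 1500 to 2000 bp, 0.147 per kb at 4000 to 5000 bp and 0.160 per kb at 15 to 20 kb. The flanks of long peaks were therefore poorer in methylation summits, over several kb, than the peaks taken as a whole (0.173 per kb). The part 500 to 1000 bp inside the edge (0.124 per kb) was above the first 1500 bp outside only. It was close to the flank at 1500 to 2000 bp (0.121 per kb) and at 2000 to 3000 bp (0.126 per kb). Inside, each side was counted only to the middle of its peak, so wider peaks weigh more in that part than in the flanks. It held 2169384 bases, against 4285500 at 500 to 1000 bp outside. The parts of peak width and of position in the value of 0.124 per kb were not separated.

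**Figure D3:**
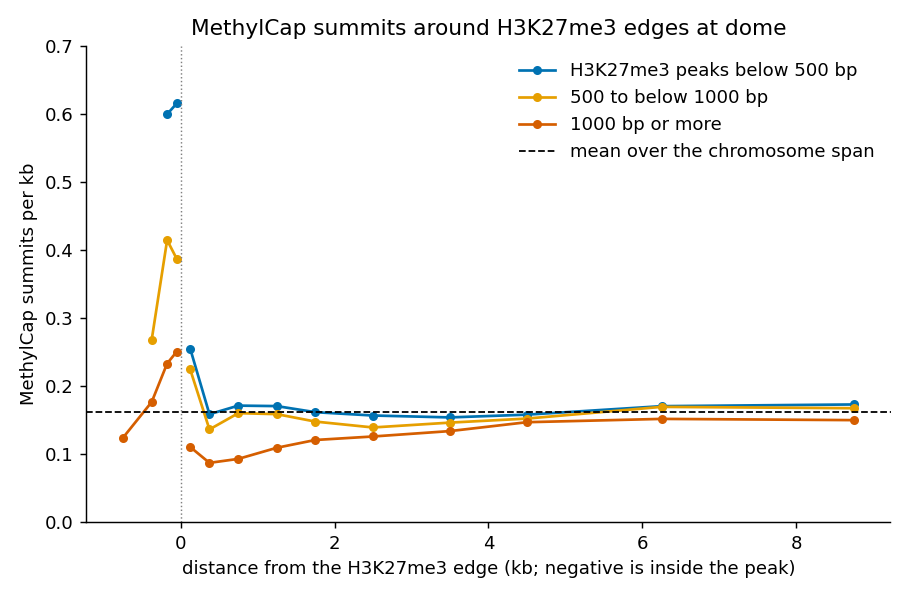
MethylCap summits per kb against the distance from the H3K27me3 edge (kb, negative inside the peak, both edges combined), by width class, with the mean over the chromosome span dashed. Short peaks are high inside (0.615 per kb) and near the mean beyond 250 bp, whereas long peaks dip to 0.0873 per kb just outside the edge.

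Short peaks were not all alike in this respect: those beside a long peak were poor in methylation. This division was chosen after the data were examined. Of the 286 peaks below 500 bp that lay within 1 kb of a peak of 1000 bp or more, 21 (7.34%, 4.85 to 10.96%) held a MethylCap peak, against 11.5% of windows (ratio 0.641). Of the 545 at 1 to 5 kb, 81 did (14.9%, 12.1 to 18.1%; ratio 1.28), and without chromosome 4 the ratio was 1.09. At 5 to 20 kb the share was already 28.5% (ratio 2.51), and of the 10966 short peaks at least 100 kb from a long one, 30.3% (29.5 to 31.2%) held a MethylCap peak (ratio 2.69). The median edge distance was 4757 bp in the nearest group and 1379 bp in the farthest. The windows were taken from the whole span, whereas the first 1 kb outside long peaks was itself poor in summits (0.537 to 0.680 times the span mean). Whether the short peaks there differed from their surroundings was not tested. The short peaks next to long ones also had a higher −log10 q (median 2.55) than the distant ones (1.44). The part of significance in this result was not tested.

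Significance went with less methylation in long peaks, whereas in short peaks the relation was weak. Peaks of each class were divided into 4 groups of equal size by −log10 q. In the longest class the share with a MethylCap peak was 38.5% (35.7 to 41.5%) in the least significant group, 1.51 times that of windows. It was 26.3% in the second (ratio 0.930), 20.2% in the third (0.648) and 17.4% (15.2 to 19.7%) in the most significant group, a ratio of 0.542. The median edge distance in these groups was 1793, 3184, 4036 and 4036 bp. In the middle class the ratio fell from 2.28 to 1.47. In the shortest class it was 2.53, 2.57, 2.74 and 2.42, with a share of 30.2% in the first group and 26.3% in the last. In that class the first group had a −log10 q of 1.01 to 1.23, and the last 1.90 to 96.4. The deficit of the longest class was thus carried by its more significant peaks. Significance and width rise together in this list, and within the longest class the more significant groups also held wider peaks, since their window shares rose from 25.5% to 32.0%.

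The median fold of H3K27me3 hardly separated peaks with and without methylation. Their median −log10 q differed in the middle class and more so in the longest. Median fold was 3.13 for both in the shortest class, 3.13 with and 3.15 without MethylCap in the middle class, and 3.35 (3.31 to 3.40) with and 3.39 (3.36 to 3.41) without in the longest. Median −log10 q with and without MethylCap was 1.45 and 1.47 in the shortest class. It was 1.49 (1.46 to 1.53) and 1.62 (1.60 to 1.65) in the middle class, and 2.99 (2.82 to 3.17) and 4.38 (4.23 to 4.50) in the longest. A call at 48 hpf separated them in every class. Of the peaks with methylation at dome, 2.48%, 8.11% and 28.8% in the 3 classes overlapped an H3K27me3 peak of 48 hpf. Of those without, 6.49%, 23.1% and 67.0% did, and the intervals did not overlap in any class. A site missing at 48 hpf may have been under the detection limit of that library. The parts of significance and of nearness to long peaks in this difference were not tested.

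From the side of DNA methylation, peaks met H3K27me3 more often than windows of their widths did. Those that did so had a moderately higher median rank by fold enrichment, within their own list, than those outside. Of the 220564 MethylCap peaks, 10213 (4.63%) overlapped an H3K27me3 peak, against 2.35% of windows (ratio 1.97, 1.93 to 2.01). Their median fold was 4.34, at percentile 58.9 (58.0 to 59.8) of the list, and that of the 210351 peaks outside was 4.10, at percentile 49.6. The rank depended on the H3K27me3 peak they met. It was 61.3 (60.2 to 62.5) in H3K27me3 peaks below 500 bp, 58.0 (55.2 to 59.4) in those of the middle class and 49.2 (44.8 to 51.4) in those of 1000 bp or more, where it was not distinguishable from the middle of the list. Ranked by −log10 q instead, the medians were 67.9, 65.0 and 62.0, so that MethylCap peaks inside long H3K27me3 peaks also stood above the middle. In the higher-scoring 50% of both lists the median fold percentile of the middle class was 49.5.

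MethylCap peaks of the highest folds were over-represented inside H3K27me3, and inside long peaks so were those of the lowest. In the highest decile of fold lay 18.2% (17.2 to 19.2%) of the MethylCap peaks inside short H3K27me3 peaks, 16.2% of those inside the middle class and 13.5% (11.8 to 15.3%) of those inside long peaks, against 9.84% outside. In the lowest decile lay 14.1% (12.4 to 15.9%) of those inside long peaks, against 8.70% inside short peaks and 10.03% outside. MethylCap peaks just outside H3K27me3, within 1 kb of a peak but not overlapping it, ranked lower by fold, at percentile 44.8, with 13.3% in the lowest decile. Those over 20 kb away stood at percentile 50.9. Ranked by −log10 q the order was the reverse, with medians at percentile 52.8 within 1 kb and 48.5 over 20 kb away.

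**Figure D4:**
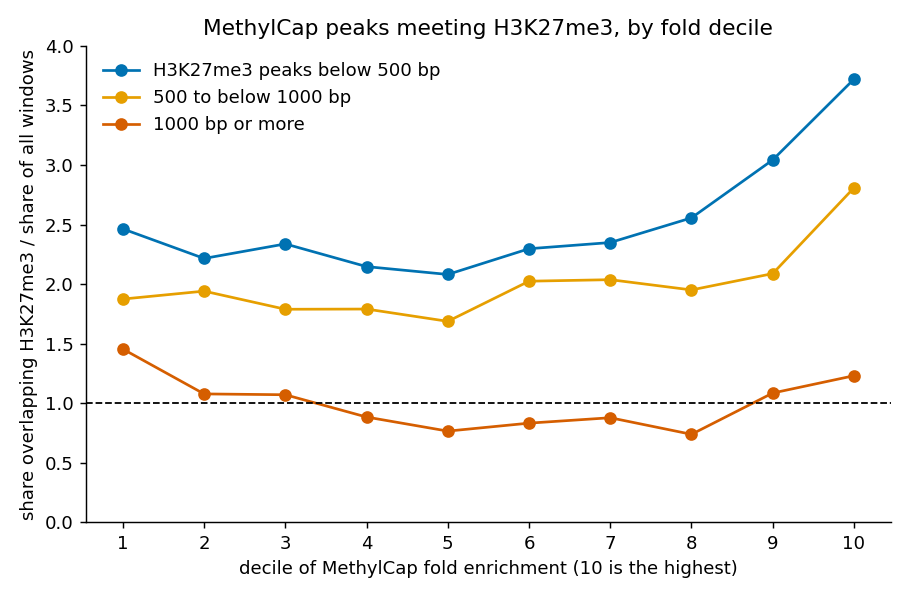
For each decile of MethylCap fold enrichment, the share of MethylCap peaks overlapping H3K27me3 peaks of a width class is divided by the share of all windows of the same widths as the MethylCap peaks (y axis, dashed line at 1). In short H3K27me3 peaks the ratio is 2.08 in decile 5 and 3.72 in decile 10, and in long ones it is above 1 at both ends and 0.738 in decile 8.

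Seen by decile and against windows as long as the MethylCap peaks, the ratio for short H3K27me3 peaks was 2.46 in the lowest decile, 2.08 in the fifth and 3.72 in the highest. For the middle class it was 1.87, 1.69 and 2.81, and for long peaks 1.45, 0.765 and 1.23. MethylCap peaks inside H3K27me3 were also wider (median 460 bp against 366 bp outside), and wide MethylCap peaks have higher folds. Within the widest 20% of MethylCap peaks (573 bp or more) the median percentile was 78.3 inside and 72.1 outside. Within the narrowest 20% it was 23.4 inside and 29.3 outside. In the groups between, from narrow to wide, it was 40.4, 56.3 and 64.5 inside and 44.8, 55.2 and 60.7 outside. The higher rank inside H3K27me3 thus held in the wider groups and turned round in the narrower ones, with little difference in the middle group. Inside long H3K27me3 peaks alone, the median was above that outside in the widest group only (76.9). From narrow to wide, it was 19.8, 33.8, 51.6 and 55.2 in the other groups. It was below that inside the middle class in every group but the widest, where the middle class had 76.7. The widest group ran from 573 to 3287 bp, so widths inside and outside were not matched within it.

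The MethylCap peaks of highest fold inside H3K27me3 lay in H3K27me3 peaks of different length. The first, on chromosome 24 from 27672 to 28516 (fold 13.9), met the end of an H3K27me3 peak of 3534 bp with a fold of 2.67. The second, on chromosome 25 from 3906772 to 3907328 (fold 13.6), contained an H3K27me3 peak of 162 bp (fold 4.21). The highest fold of the list, 15.04, lay outside H3K27me3, on chromosome 19 from 18831890 to 18832304, at 61345 bp from the nearest H3K27me3 peak.

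The excess in short peaks was present on every chromosome. The ratio to windows, computed within each chromosome, was above 1 on 25 of 25 chromosomes in the shortest class (2.31 to 2.996) and in the middle class (1.46 to 2.63). In the longest class it was above 1 on 2 chromosomes, chromosome 4 (1.49) and chromosome 22 (1.19). On the others it was between 0.536 on chromosome 14 and 0.994 on chromosome 15. The interval of the share on chromosome 22 (29.9 to 47.9% of 109 peaks) included that of windows (32.3%). The same was true of most chromosomes with a ratio below 1. The exceptions were chromosomes 9, 14, 17, 19, 21, 23 and 24, where the interval lay below the share of windows. Chromosome 4, whose long arm is known to be rich in repeats, had the highest ratio in all 3 classes. There 45.6% (39.8 to 51.5%) of the 272 long H3K27me3 peaks held a MethylCap peak. Edges of long peaks were farther from a summit than the bases of their chromosome on 24 of 25 chromosomes, and edges of short peaks were nearer on 25.

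**Figure D5:**
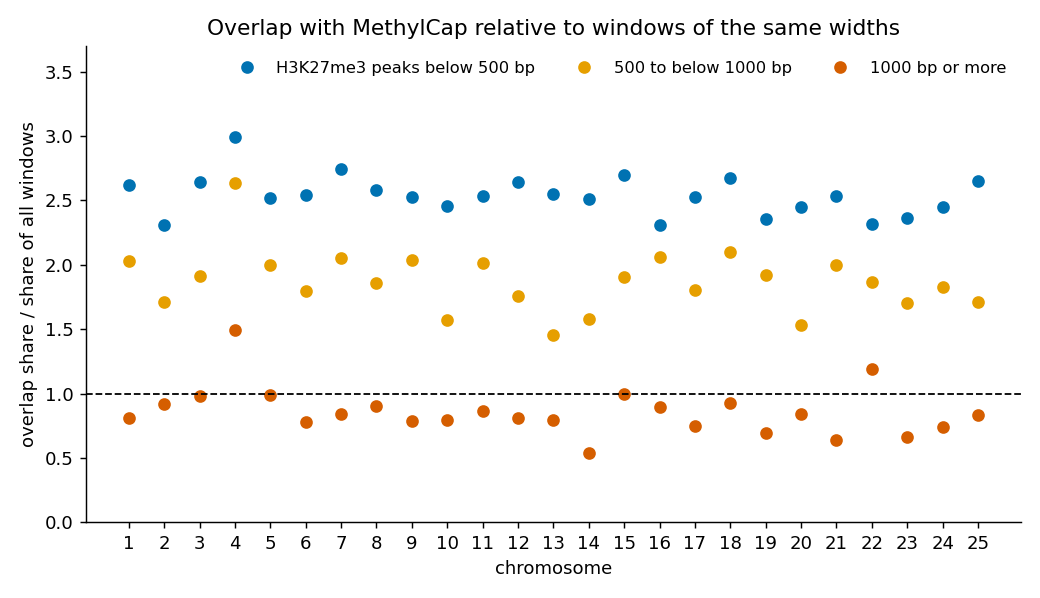
Overlap share of H3K27me3 dome peaks divided by the share of all windows of the same widths on the same chromosome, for the 3 width classes (y axis) on chromosomes 1 to 25 (x axis), with the dashed line at 1. All points of the shorter classes lie above 1, and 2 points of the longest class do, on chromosomes 4 and 22.

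At 48 hpf, for comparison, the ratios to windows had the same order of classes and were lower. The list of that stage held 6434 H3K27me3 peaks, of which 12.1% overlapped one of its 192673 MethylCap peaks. The share was 14.5% (13.0 to 16.1%) of 1951 peaks below 500 bp, 12.2% (10.9 to 13.7%) of 2190 peaks of the middle class and 9.94% (8.78 to 11.2%) of 2293 peaks of 1000 bp or more. Against windows of the same widths the ratios were 1.44, 0.829 and 0.383, compared with 2.57, 1.91 and 0.876 at dome. With 1 library per stage and unknown depth, no test of the stages against each other was possible. The 48 hpf list also held proportionally fewer short peaks. Its narrowest H3K27me3 peak had 247 bp, against 137 bp at dome, so the classes below 500 bp were not alike in width. The lowest −log10 q of the MethylCap lists differed too, at 1.32 at 48 hpf and 1.63 at dome.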

How the data were processed

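The authors deposited 1 peak list per library. The build was danRer7, and the tools named were MACS2, SAMtools, Bowtie2 (2.2.1) and CASAVA (1.8.2), per the submitters' processing notes. Their parameters, any control library, pooling and the handling of multiply mapping reads are not given in the sources used here. As deposited, fold enrichment (a ratio to the caller's local background), −log10 p and −log10 q are the peak caller's, averaged over the peak in the H3K27me3 lists, judging by their 9-column broad-peak layout; the deposited score repeats −log10 q (10 times, without decimals, except in 6 MethylCap peaks). They were used only to rank, divide or describe peaks within a list. The last of the 10 deposited MethylCap columns gave the summit offset from the peak start.

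Overlap meant at least 1 bp. Window shares are exact counts over all positions of the chromosome span (1357 Mb, each chromosome ending at its highest peak end), with no random placement. Intervals are Wilson or order-statistic 95% intervals; edges of 1 peak are not independent. Regions named were the 3 most significant per width class with and without MethylCap, the 3 widest of each kind, and the 3 MethylCap peaks of highest fold inside and outside; a selection is printed. Members, classes and measures were chosen with earlier results of these data known. Overlap and distance functions were tested on simulated lists. Python 3.11.15, NumPy 2.4.6, pandas 2.3.3 and SciPy 1.17.1 were used.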

Additional observations from a re-analysis of the deposited data

Results flagged for a closer look

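The overlap of the marks relative to windows of the same widths lay on opposite sides of 1 at dome and at 48 hpf, both in the full lists (1.94 and 0.698) and in H3K27me3 peaks of 500 bp to under 1000 bp (1.91 and 0.829). This difference was not tested, as each stage had 1 library per mark. By this measure, peaks below 500 bp (above 1 at both stages) and peaks of 1000 bp or more (below 1 at both stages) did not change sides. Counted by bases covered, relative to the chromosome span, the classes differed in this. The longest class changed sides (1.27 at dome and 0.561 at 48 hpf), and the middle class stayed above 1 (2.54 and 1.12). On the mitochondrial genome, which no comparison used, the dome lists held 5 H3K27me3 peaks and 7 MethylCap peaks. Whether these calls stand for either mark or for background was not tested.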

How the results depend on the processing

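Values are given for H3K27me3 peaks below 500 bp, of 500 bp to under 1000 bp and of 1000 bp or more, in that order; "kept" refers to the side of the reference. The overlap shares were 24.7%, 25.5% and 22.9% when the overlap had to reach 50% of the shorter peak (ratios to windows 3.28, 2.25 and 0.959), 16.2%, 23.7% and 22.7% with a MethylCap summit inside (3.76, 2.19 and 0.953), and 18.9%, 19.9% and 15.2% in the higher-scoring 50% of each list (3.05, 2.003 and 0.897). Without chromosome 4 the latter 2 classes had 31.7% and 24.2% (1.85 and 0.831), and with peaks joined within 1 kb the longest had 29.8% (0.955). These settings kept the sides, but the deficit of the longest class was near 1 in several. Shortening only the H3K27me3 list, chosen after the data were examined, gave 27.5%, 29.4% and 23.8% (2.53, 1.65 and 0.802). Shortening only the MethylCap list, also chosen afterwards, gave 19.3%, 22.1% and 16.8% (3.02, 2.30 and 1.002), so the deficit of the longest class ended; the cause was not tested.

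Median edge distances were 1244, 1494 and 3043.5 bp to the nearest MethylCap base (all bases 1871 bp), and 1509, 1837 and 3411 bp without chromosome 4 (2107 bp). With joined peaks the latter 2 classes had 1646.5 and 2906.5 bp (2100 bp). In the higher-scoring 50% they were 3236, 4052.5 and 5432 bp (3962 bp), so the middle class turned from nearer to farther than all bases; the cause was not tested. The median fold percentile inside H3K27me3 was 53.7 in the higher-scoring 50%, where the middle class turned to 49.5. By −log10 q it was 66.4, with 67.9, 65.0 and 62.0 by class, the last on the other side of 50. Other settings left it within its interval. Unknown depth limits all shares. No paired analysis was possible because each group had 1 library and no replicate numbers.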
